A study of Mus musculus with 9 samples.

Results

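The 10 genes described here encode the enzymes that make and desaturate long-chain fatty acids, together with their transcription factor. They were chosen by name, as the rows of the RNA-seq table for Srebf1, Acly, Acss2, Acaca, Acacb, Fasn, Scd1, Scd2, Fads1 and Fads2, 10 of 24044 rows with a gene name. Their levels were followed in mouse embryonic stem cells from 3 lines in common use, which are E14, v6.5 and Oct4 GiP. Each line was grown on gelatin for 2 weeks under 3 conditions, labelled Serum, 2i and Paused, at passages 20 to 23. Paused cells received 200 nM of INK128, which inhibits the mTor kinase, over those 2 weeks, and no genetic change is labelled in any group beyond the line itself. Each line gave 1 library per condition, so each condition had 3 libraries (n = 3), which differ in cell line and not in culture replicate. Where 3 values follow a condition, they stand in the order E14, v6.5, Oct4 GiP. The labels do not give the medium and doses behind the names Serum and 2i, or the medium of the Paused cells. In general use, 2i stands for a pair of inhibitors of the MEK and GSK3 kinases.

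Cells build fatty acids from cytosolic acetyl-CoA. ATP citrate lyase (Acly) cleaves citrate and acyl-CoA synthetase short-chain family member 2 (Acss2) activates acetate to supply it, acetyl-CoA carboxylase (Acaca, and the mitochondrion-bound Acacb) turns it into malonyl-CoA, and fatty acid synthase (Fasn) assembles palmitate. Stearoyl-CoA desaturases (Scd1, Scd2) then introduce a double bond into saturated chains, and the delta-5 and delta-6 desaturases (Fads1, Fads2) act on polyunsaturated ones. Srebf1 encodes SREBP-1, a membrane-bound transcription factor that is cleaved to become active, that drives most of these genes, and whose processing is known from other cell types to respond to mTORC1.

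Scd1, Scd2 and Fads2 had the 3 largest log2 differences of the 10 genes between Paused cells and 2i, and all 3 passed the test. Between Paused cells and Serum they were again the largest, but Scd2 did not pass (adjusted p = 0.0625 by limma). The Scd1 call was lost without any 1 of the 6 libraries compared. The Fads2 call was lost without the E14 Paused library (adjusted p = 0.0547 by limma). Without any 1 line, 0 members were called between Paused cells and Serum. The 4 desaturase genes, read as summed FPKM (fragments scaled to transcript length and to library depth), stood at 77.2 to 117 in Serum, 305 to 403 in 2i and 29.5 to 54.6 in Paused cells, and the 3 ranges did not overlap. Scd1 had the largest fold range, from a mean of 63.0 FPKM in 2i to 2.41 FPKM in Paused cells. Acly and Fasn, the most abundant members with Scd2, did not pass the test in any comparison.

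Promoter sequence was available for 7 of the 10 members in RefSeq (GRCm38.p6), as 9 windows because Srebf1 has 3 starts. Not all of these starts are the outermost start of the gene in GENCODE. Once cut before any annotated exon, the window ends 65766 bases inside Acaca and 18974 inside Acacb. For Srebf1 it ends 12110 and 1954 bases inside the gene, in its first and second window. The starts used for Acss2 and Fads2 also lie inside the gene. Only 155 and 7 of the 250 bases in their windows come before its first annotated exon. The windows below let a reader set the upstream sequence of Srebf1 and Acss2, which were called in 2i, beside that of Acly and Fasn, which were not. Each is the gene strand, 5′ to 3′, up to the annotated exon and without it. Capitals mark exact matches on either strand to a GC box (GGGCGG) or an NF-Y box (CCAAT).

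Srebf1 (1 of its 3 starts), chr11:60210472-60210721, minus strand: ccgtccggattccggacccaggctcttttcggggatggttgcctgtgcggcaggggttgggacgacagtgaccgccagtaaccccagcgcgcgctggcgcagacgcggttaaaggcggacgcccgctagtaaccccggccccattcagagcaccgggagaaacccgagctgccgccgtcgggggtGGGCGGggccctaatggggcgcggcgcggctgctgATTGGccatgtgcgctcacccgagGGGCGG

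Acss2, chr2:155517793-155517947, plus strand: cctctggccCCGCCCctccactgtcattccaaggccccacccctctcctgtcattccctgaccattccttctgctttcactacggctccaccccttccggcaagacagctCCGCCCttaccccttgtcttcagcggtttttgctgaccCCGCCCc

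Acly, chr11:100528001-100528250, minus strand: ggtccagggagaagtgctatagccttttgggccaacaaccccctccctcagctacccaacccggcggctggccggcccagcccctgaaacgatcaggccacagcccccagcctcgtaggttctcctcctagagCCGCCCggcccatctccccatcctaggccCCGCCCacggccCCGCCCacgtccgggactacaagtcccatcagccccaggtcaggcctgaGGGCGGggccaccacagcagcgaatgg

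Fasn, chr11:120824548-120824797, minus strand: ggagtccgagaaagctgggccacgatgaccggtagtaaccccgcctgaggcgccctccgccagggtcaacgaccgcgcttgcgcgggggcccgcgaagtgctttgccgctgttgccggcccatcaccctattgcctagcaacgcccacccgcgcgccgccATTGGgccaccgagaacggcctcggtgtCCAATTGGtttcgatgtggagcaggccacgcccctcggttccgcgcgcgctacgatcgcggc

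The Srebf1 window held 2 GC boxes, 65 and 6 bases before the start, and 1 NF-Y box 30 bases before it. In the Acly window there were 4 GC boxes and no NF-Y box, while the Fasn window held 3 NF-Y boxes, at 90, 62 and 59 bases, of which the last pair overlap. The 155 bases printed for Acss2 held 3 GC boxes, and its whole window of 250 bases 4 GC boxes and 1 NF-Y box. Over the 250 bases before the start, 32.7% of 32851 promoters held a GC box and 33.8% an NF-Y box, so these matches are common. The sterol regulatory element in the form TCACNCCAC occurred in 1.05% of promoters and the E-box CACGTG in 6.02%. Neither string of letters was found in the 9 windows. Of these, 4 lie inside the gene, and those of Acss2 and Fads2 reach into it, with 155 and 7 bases before its first exon. At such low shares absence from 9 windows is the likely outcome for any genes, and other forms of these elements were not searched. Nothing is concluded from it. Both strands were searched, and a match is a run of letters and not a site shown to be bound.

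All 10 members had FPKM of at least 1 in every library, so all 10 passed the filter of 1 FPKM in 3 libraries that left 12711 genes tested. Tests were limma-trend on log2(FPKM + 1) with the cell line as a block, and adjusted p is Benjamini-Hochberg over the 12711 genes, with 0.05 as the threshold. A log2 difference on this scale understates the change of low genes. In 2i against Serum 7 of 10 members were higher and 0 lower, against 21.7% of all tested genes higher and 18.9% lower (40.6% in either direction). In Paused against Serum 0 were higher and 3 lower, against backgrounds of 7.64% and 10.5% (18.2% in either). In Paused against 2i 0 were higher and 7 lower, against 19.8% and 24.6% (44.4% in either). Any pair of these comparisons shares 3 libraries, so their counts are not independent.

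The median log2 difference of the members was 1.38 in 2i against Serum, where that of all tested genes was 0.02. In Paused against Serum the members' median was -0.33 and the gene median -0.01, and in Paused against 2i they were -1.56 and -0.03. Groups did not overlap for 7, 6 and 8 of the 10 members in these 3 comparisons, in that order, against 47.9%, 38.6% and 51.9% of tested genes. The order of mean levels was 2i, Serum, Paused from high to low for Srebf1, Acss2, Fasn, Scd1, Scd2, Fads1 and Fads2.

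A second set of deposited columns repeats the FPKM after scaling each library by its own constant. The constants were 3.40 to 3.74 in Serum, 2.45 to 3.17 in 2i and 1.81 to 1.99 in Paused libraries. No source used here says how they were made. On that scale all genes shifted, with medians of -0.88 in Paused against Serum, -0.33 in 2i against Serum and -0.56 in Paused against 2i. Members called lower in Paused against Serum then numbered 9 of 10, where 76.9% of all genes were lower and 0.378% higher. In 2i against Serum 7 members were higher and 0 lower on the authors' scale, against 9.76% and 35.7% of genes, and in Paused against 2i all 10 were lower, against 54.5% of genes lower and 6.21% higher. The splits of all calls between higher and lower were 2762 and 2399 in 2i against Serum, and 2181 and 3263 when each library was centred on its median gene, which moved every gene by -0.11. All values from here on are FPKM or log2(FPKM + 1) unless the authors' scale is named.

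**Figure D1:**
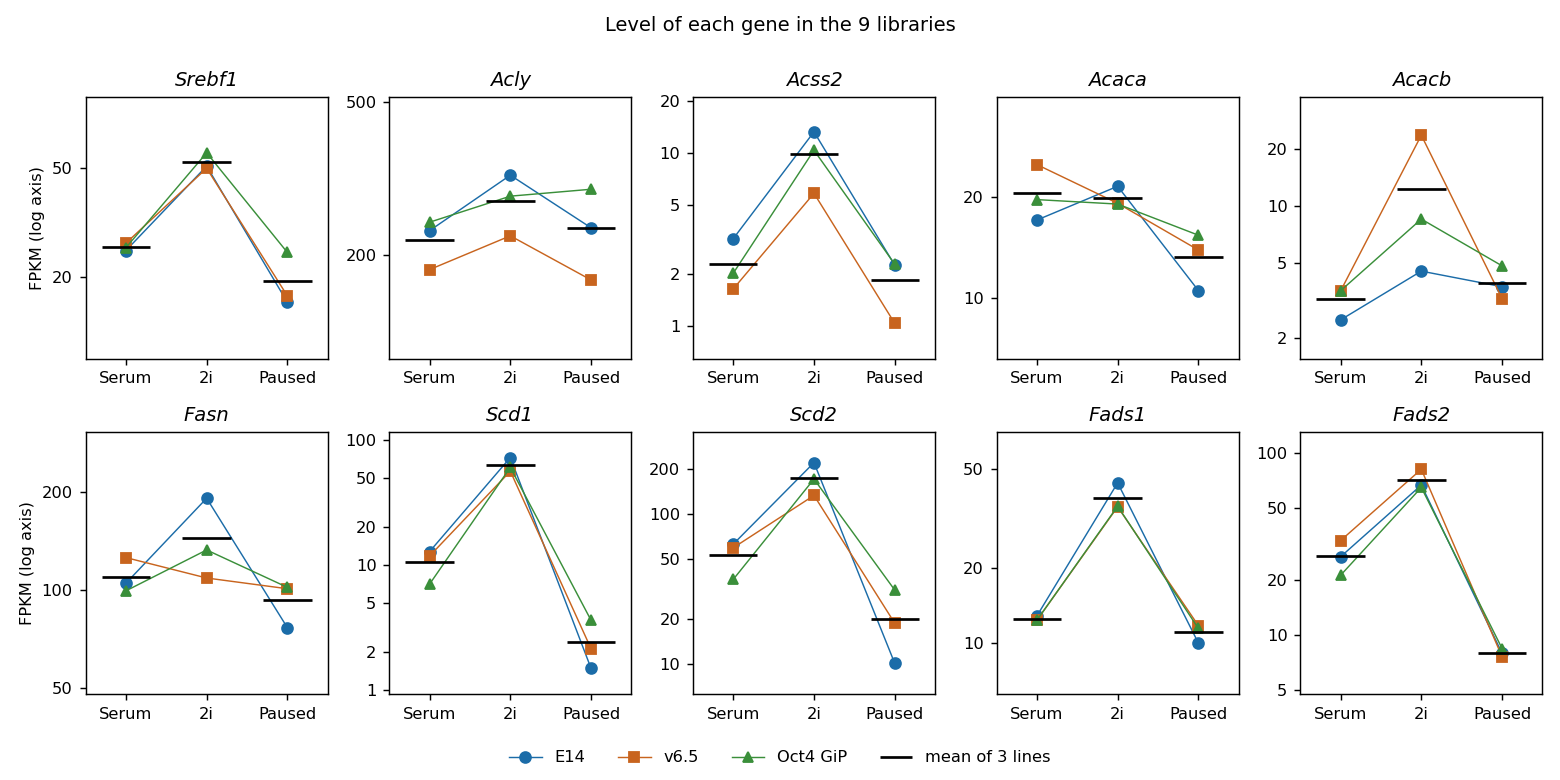
FPKM (log axis, one scale per panel) of the 10 genes in the 9 libraries, with lines joining the 3 conditions of each cell line and bars at the mean of 3 lines. Scd1, Scd2, Fads1, Fads2, Acss2 and Srebf1 peak in 2i in every line, while the 3 conditions of Acly overlap.

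Srebf1 (chr11:60199089-60222581, minus strand, GRCm38) was at 25, 26.6 and 25.6 FPKM in the Serum libraries. In 2i they had 50.7, 49.8 and 56.7 FPKM, and in Paused cells 16.2, 17.1 and 24.6 FPKM. The 3 conditions did not overlap, although Paused Oct4 GiP cells sat just under the Serum values. Srebf1 was 2.04-fold higher in 2i than in Serum, with a log2 difference of 1.0 ± 0.13 (SE) and an adjusted p of 0.0026 by limma. It was 2.72-fold lower in Paused cells than in 2i (log2 -1.42 ± 0.13, adjusted p = 0.000839). Against Serum the difference of -0.42 ± 0.13 did not pass (adjusted p = 0.0639), and it passed on centring each library on its median gene (adjusted p = 0.0444) and on the authors' scale (-1.35, adjusted p = 0.000661).

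Acly (chr11:100476353-100528000, minus strand) was the most abundant member. Its Serum libraries had 231, 183 and 243 FPKM, its 2i libraries 322, 224 and 284 FPKM and its Paused libraries 235, 172 and 296 FPKM. All 3 conditions overlapped, and v6.5 was the lowest line in each. The log2 differences were 0.33 ± 0.11 in 2i against Serum (adjusted p = 0.0563), 0.07 ± 0.11 in Paused against Serum (adjusted p = 0.676) and -0.26 ± 0.11 in Paused against 2i (adjusted p = 0.106), all by limma. The first came under the threshold without the Oct4 GiP Paused library (adjusted p = 0.0309) or the Oct4 GiP 2i library (0.0462), and the last without the Oct4 GiP Paused library (0.0346). On the authors' scale Acly was 0.86 lower in Paused cells than in Serum.

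Acss2 (chr2:155517948-155585724, plus strand) was the least abundant of the suppliers of acetyl-CoA. Serum libraries had 3.19, 1.63 and 2.01 FPKM, 2i libraries 13.3, 5.85 and 10.4 FPKM, and Paused libraries 2.24, 1.03 and 2.27 FPKM. Every 2i library was above every other library, and Serum and Paused overlapped. Acss2 was 4.32-fold higher in 2i than in Serum (log2 1.69 ± 0.15, adjusted p = 0.00124 by limma) and 5.33-fold lower in Paused cells than in 2i (log2 -1.90 ± 0.15, adjusted p = 0.000619). Paused against Serum gave -0.21 ± 0.15 (adjusted p = 0.354). Acss2 overlaps the opposite-strand genes Acss2os over 9891 bases and Gss over 22544 bases, and since no source used here states whether the authors counted by strand, its values may hold fragments of both.

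The acetyl-CoA carboxylases differed from each other. Acaca (chr11:84129672-84401651, plus strand), which makes the malonyl-CoA used for synthesis, had 17.1, 25.1 and 19.7 FPKM in Serum. Its 2i values were 21.6, 19.2 and 19.1 FPKM and its Paused values 10.5, 13.9 and 15.4 FPKM. Paused libraries lay below all others, and Serum and 2i overlapped. Acaca was 1.56-fold lower in Paused cells than in Serum (log2 -0.60 ± 0.16, adjusted p = 0.0486 by limma) and 1.5-fold lower than in 2i (-0.57 ± 0.16, adjusted p = 0.0297). Both calls sat near the threshold: the first was lost without any 1 of the 3 Serum or 3 Paused libraries or the Oct4 GiP 2i library (adjusted p up to 0.176), and the second without the E14 or v6.5 Paused or the E14 or Oct4 GiP 2i library (up to 0.122). In 2i against Serum Acaca gave -0.03 ± 0.16 (adjusted p = 0.889). Acaca overlaps the opposite-strand gene Gm11437 over 19126 bases and the same-strand Gm37391 over 2318 bases. As strand use in counting is not stated, its values may hold fragments of both.

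Acacb (chr5:114146535-114250761, plus strand), whose malonyl-CoA restrains fatty acid import into mitochondria, had 2.49, 3.54 and 3.55 FPKM in Serum and 3.73, 3.23 and 4.81 FPKM in Paused cells. In 2i it had 4.51, 23.6 and 8.50 FPKM, so the v6.5 library carried most of the mean of 12.2 ± 10.1 FPKM (SD, n = 3). Acacb was 3.83-fold higher in 2i than in Serum (log2 1.39 ± 0.42, adjusted p = 0.0399 by limma). That call was lost without the E14, v6.5 or Oct4 GiP Serum library, the Oct4 GiP 2i library, or the E14 or Oct4 GiP Paused library, with adjusted p up to 0.135. Paused against 2i gave -1.16 ± 0.42 (adjusted p = 0.065) and Paused against Serum 0.23 ± 0.42 (adjusted p = 0.725).

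Fasn (chr11:120805846-120824547, minus strand) had 105, 126 and 99.5 FPKM in Serum, 192, 109 and 133 FPKM in 2i, and 76.6, 101 and 102 FPKM in Paused cells. E14 moved with condition, whereas v6.5 was highest in Serum, and the groups overlapped except between 2i and Paused. The differences were 0.36 ± 0.24 in 2i against Serum (adjusted p = 0.265), -0.25 ± 0.24 in Paused against Serum (0.491) and -0.60 ± 0.24 in Paused against 2i (0.0803), all by limma. The last passed without the v6.5 2i library (log2 -0.87, adjusted p = 0.0259), and on the authors' scale Fasn was 1.18 lower in Paused cells than in Serum on the log2 scale.

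Scd1 (chr19:44394455-44407879, minus strand), which makes oleate and palmitoleate from saturated chains, had 12.8, 11.8 and 7.03 FPKM in Serum. In 2i it had 72.4, 56.3 and 60.4 FPKM, and in Paused cells 1.49, 2.14 and 3.61 FPKM. The 3 conditions did not overlap. Scd1 was 5.98-fold higher in 2i than in Serum (log2 2.5 ± 0.30, adjusted p = 0.0023 by limma) and 26.1-fold lower in Paused cells than in 2i (log2 -4.27 ± 0.30, adjusted p = 0.000518), which was the 20th lowest of 12711 log2 differences. Against Serum it was 4.36-fold lower in Paused cells (log2 -1.76 ± 0.30, adjusted p = 0.0185), a call lost without any 1 of the 6 Serum and Paused libraries (adjusted p 0.0541 to 0.0779).

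Scd2 (chr19:44293674-44306864, plus strand) lies 87590 bases from Scd1 and encodes a related desaturase. Its Serum libraries had 62.9, 59.5 and 36.6 FPKM, its 2i libraries 220, 133 and 171 FPKM, and its Paused libraries 10.1, 18.7 and 31.1 FPKM. The order followed Scd1, with E14 the highest in 2i and the lowest in Paused cells. Scd2 was 3.29-fold higher in 2i than in Serum (log2 1.71 ± 0.43, adjusted p = 0.0221 by limma), a call lost without the E14 or Oct4 GiP 2i library or the Oct4 GiP Serum library (up to 0.0811). It was 8.74-fold lower in Paused cells than in 2i (-3.17 ± 0.43, adjusted p = 0.00253). Against Serum it gave -1.46 ± 0.43 and did not pass (adjusted p = 0.0625), and without the cell line as a block it did (0.0442). Fragments shared between Scd1, Scd2 and their copies Scd3 and Scd4 could be split differently by the authors' counting, so the levels of these 4 genes are uncertain to that extent.

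Fads1 (chr19:10182888-10196877, plus strand), the delta-5 desaturase, was the most even member within Serum, at 12.8, 12.3 and 12.3 FPKM. In 2i it had 43.8, 35.1 and 35.3 FPKM and in Paused cells 9.96, 11.7 and 11.4 FPKM. Fads1 was 3.06-fold higher in 2i than in Serum (log2 1.53 ± 0.12, adjusted p = 0.000903 by limma) and 3.45-fold lower in Paused cells than in 2i (log2 -1.69 ± 0.12, adjusted p = 0.000518). Against Serum it was slightly lower in each line, with a difference of -0.16 ± 0.12 (adjusted p = 0.37).

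Fads2 (chr19:10062765-10101746, minus strand), the delta-6 desaturase, lies 81141 bases from Fads1. It had 26.9, 33.0 and 21.3 FPKM in Serum, 66.6, 81.3 and 64.6 FPKM in 2i, and 7.95, 7.62 and 8.45 FPKM in Paused cells. The Paused libraries varied least and lay well below the rest. Fads2 was 3.38-fold lower in Paused cells than in Serum (log2 -1.62 ± 0.14, adjusted p = 0.0089 by limma), which was lost only without the E14 Paused library among the 9 single-library omissions (adjusted p = 0.0547). It was 2.62-fold higher in 2i than in Serum (log2 1.37 ± 0.14, adjusted p = 0.00167) and 8.84-fold lower in Paused cells than in 2i (log2 -2.99 ± 0.14, adjusted p = 0.000259).

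**Figure D2:**
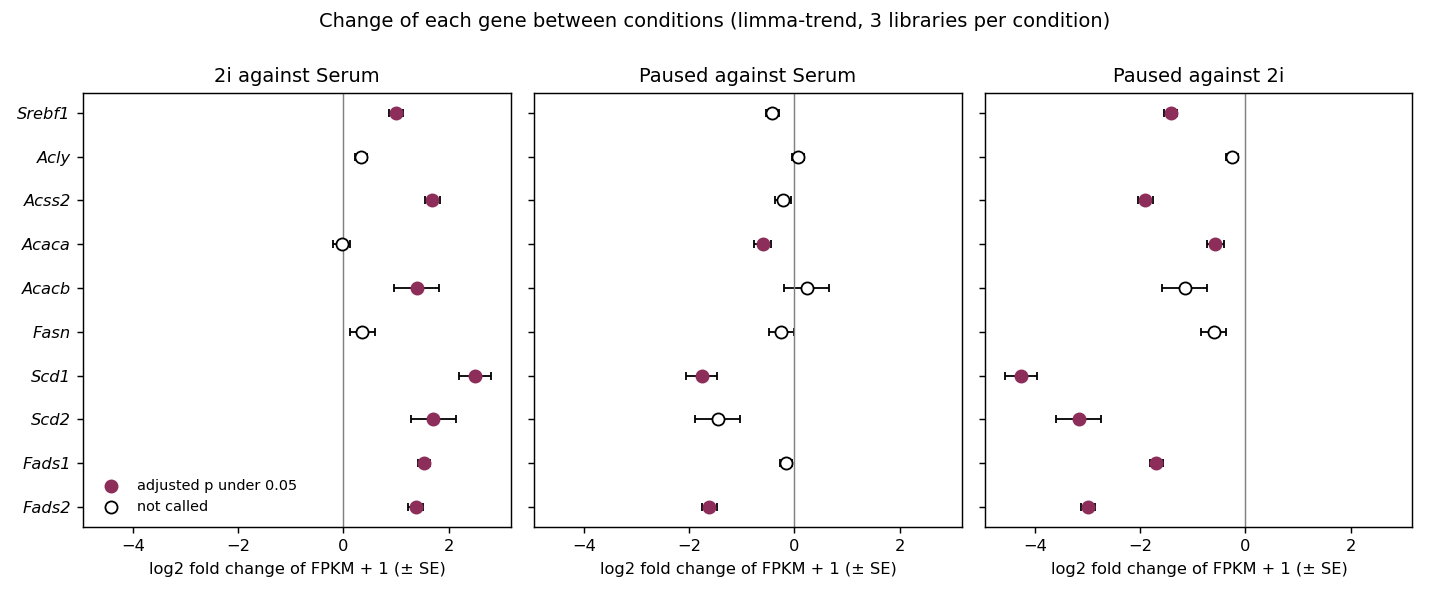
Log2 difference of FPKM + 1 for each gene in the 3 comparisons, with bars of ± 1 SE from limma (9 libraries, cell line as a block). Filled and open points mark adjusted p under and over 0.05, and the 4 desaturases and Acss2 lie farthest from 0 in Paused against 2i.

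The size of the difference varied between lines. For Paused against Serum the median over the 10 members was -0.53, -0.49 and -0.08 in the 3 lines. Scd1 was lower by 2.47, 2.03 and 0.80 on the log2 scale, and Scd2 by 2.53, 1.62 and 0.23. Fads2 was lower by 1.64, 1.98 and 1.24, the smallest spread of the 3 largest differences. Srebf1 was lower by 0.60, 0.61 and 0.06. With 1 library per line and condition, the difference between lines was not tested.

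**Figure D3:**
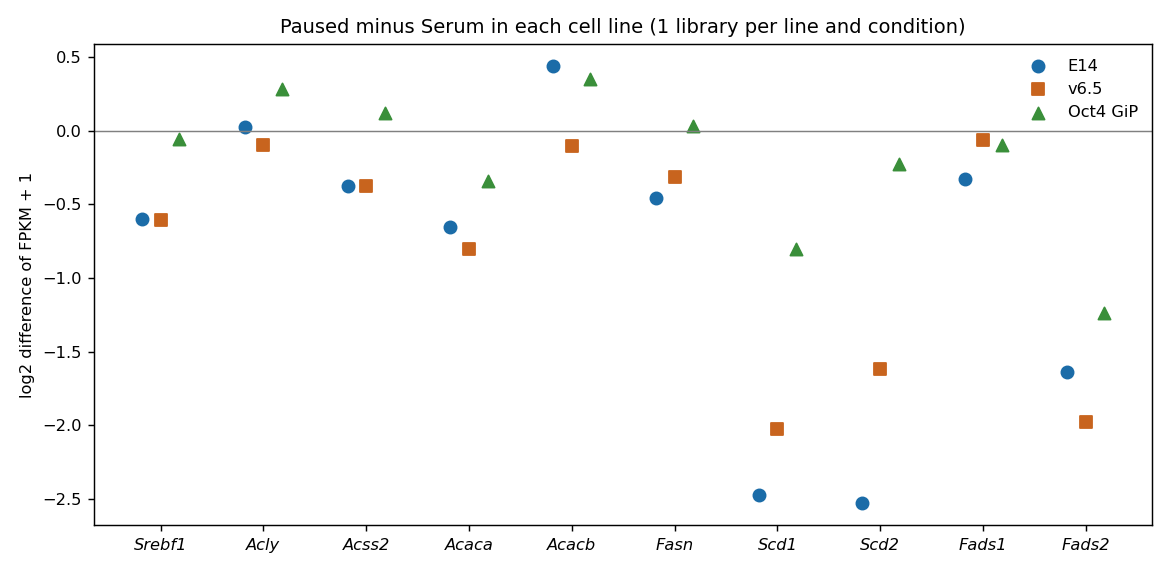
Paused minus Serum in log2(FPKM + 1), for each gene and cell line, with 1 library per line and condition. Srebf1, Acaca, Scd1, Scd2, Fads1 and Fads2 are below 0 in all 3 lines, and Oct4 GiP lies nearest to 0 or above it for most genes.

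The share taken by the desaturases among the 10 members' summed FPKM moved in the same order. The 4 desaturases made up 23.1%, 24.1% and 16.4% of the sum in Serum, 40.0%, 41.4% and 39.3% in 2i and 7.88%, 11.5% and 11% in Paused cells. Acly made up 38% to 51.6% in Serum, 30.4% to 33.7% in 2i and 49.3% to 62.9% in Paused cells. The share of Scd1 in Scd1 plus Scd2 was 16.1% to 16.9% in Serum, 24.8% to 29.8% in 2i and 10.3% to 12.9% in Paused cells.

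Ratios between related genes within a library were compared by exact permutation tests of 3 libraries against 3 (two-sided). Libraries were permuted freely, without the pairing by cell line that the limma model used, and 0.1 is then the smallest possible p. The 9 tests were adjusted together. The log2 ratio of Fads2 to Fads1 was 1.04 ± 0.31 in Serum, 0.88 ± 0.30 in 2i and -0.42 ± 0.14 in Paused cells (SD, n = 3), so Fads2 was above Fads1 in all Serum and 2i libraries and below it in all Paused libraries. The ratio was 1.46 lower in Paused cells than in Serum (exact p = 0.1, adjusted p = 0.15), while 2i and Serum differed by -0.16 (exact p = 0.6). Scd1 over Scd2 was -2.23 ± 0.015 in Serum, -1.43 ± 0.19 in 2i and -2.53 ± 0.34 in Paused cells, a difference of 0.80 between 2i and Serum (exact p = 0.1) and of -0.31 between Paused and Serum (exact p = 0.4). The last depended on the pseudocount, since Scd1 was low in Paused cells: with 0.1 in place of 1 it was -0.614 (exact p = 0.1, unadjusted). Acaca over Acacb was 2.36 ± 0.17 in Serum, 0.95 ± 1.17 in 2i and 1.53 ± 0.27 in Paused cells, the 2i spread coming from values of 2.04, -0.28 and 1.08. Acaca over Acacb was 0.83 lower in Paused cells than in Serum (exact p = 0.1). These ratios are on log2(FPKM + 1).

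**Figure D4:**
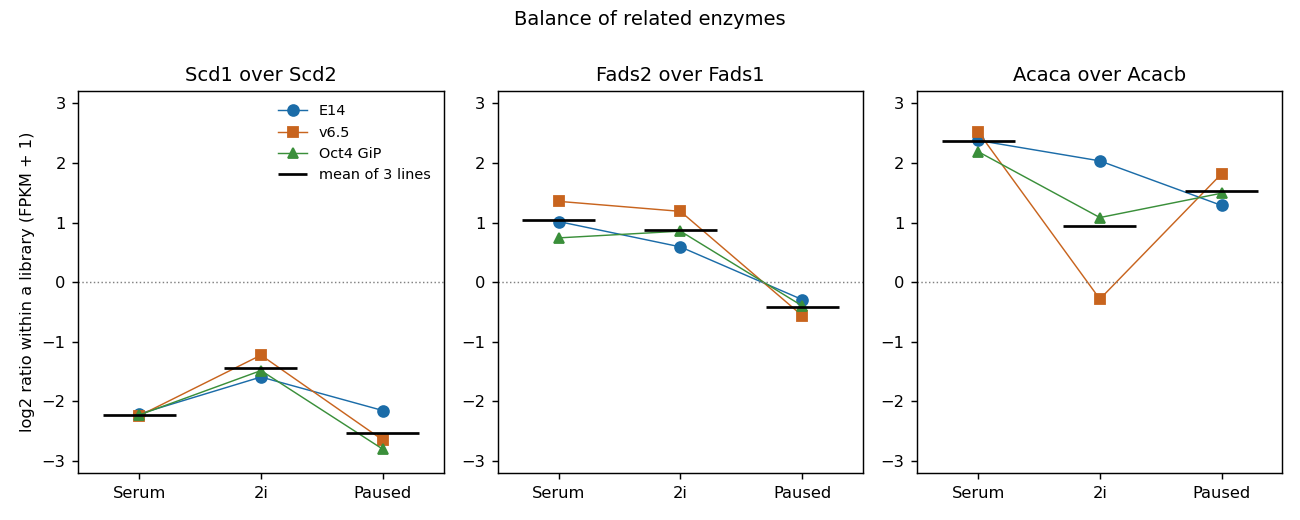
Log2 ratios of FPKM + 1 within each of the 9 libraries for 3 pairs of related genes, by condition, with bars at the mean of 3 lines. Fads2 over Fads1 is below 0 in the 3 Paused libraries and above 0 in the other 6.

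Across all 9 libraries the levels of the members correlated pairwise with Pearson's r from 0.08 to 0.98 and a median of 0.72. Srebf1 and Scd1 reached 0.97, and Scd1 and Scd2 0.98. These values are a description over libraries that share line, medium and scaling. Among 11537 tested genes with a single symbol, the genes most like Scd1 were Scd3 and Pmvk (both r = 0.994) and Cd2bp2 (0.987). Those most like Scd2 were Pmvk (0.981), Scd3 (0.98) and Preb (0.976). Scd3 is a copy of Scd1 and Scd2, and fragments may be shared between them, as said above. Srebf1 was most like Scd4 (0.987), Fars2 (0.982) and Acat2 (0.982). Acss2 was most like Ndufa6 (0.993), Kdm4a (0.99) and its antisense neighbour Acss2os (0.988), whose fragments may be mixed with those of Acss2 where the genes overlap, if counting did not use strand. Fads2 was most like Nptn (0.99), Aldh4a1 (0.989) and Npnt (0.986), and Fads1 most like Tlx2 and Ffar2 (both 0.992) and Reep1 (0.991). For Acly, Acaca, Acacb and Fasn the closest genes were Gnb4 (0.969), Rbm10 (0.966), Ceacam10 (0.977) and Ormdl1 (0.954).

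The rest of the pathway was read from 7 lists with 73 genes, of which 66 were tested. In 2i against Serum 27 were higher and 6 lower, in Paused against Serum 1 higher and 11 lower, and in Paused against 2i 5 higher and 31 lower. The Paused against Serum count was 0 in both directions without the Oct4 GiP Serum library or without any 1 of the 3 Paused libraries. The shares over all genes, higher and lower, were 21.7% and 18.9%, 7.64% and 10.5%, and 19.8% and 24.6% in the same order, and the list counts below are to be read against them. In Paused against Serum the 12 calls were 18.2% of the 66, the same as the 18.2% of all tested genes. The list medians were 0.22, -0.16 and -0.42, closer to the all-gene medians than those of the 10 members. On the authors' scale 58 of the 66 (87.9%) were called in Paused against Serum, where 76.9% of all genes were lower and 0.378% higher. In 2i against Serum 15 were higher and 16 lower on that scale, against 9.76% and 35.7% of all genes. Higher calls thus no longer outnumbered lower ones, and the list median was -0.105 where the all-gene median was -0.333. Paused against 2i gave 1 higher and 46 lower, against 6.21% and 54.5%.

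Among the regulators of lipid synthesis, 5 of 12 were higher and 2 lower in 2i than in Serum. Insig1, which holds SREBP precursors in the endoplasmic reticulum, was at 23.8 ± 7.61 FPKM in Serum and 81.9 ± 6.49 FPKM in 2i (log2 1.79 ± 0.29, adjusted p = 0.00502 by limma). Lpin1, a phosphatidate phosphatase, gave 1.48 and Srebf2, which encodes the SREBP of sterol synthesis, 0.94. In Paused against 2i, where 5 were lower and 1 higher, Lpin1 was lower by 2.03, Insig1 by 1.74 and Srebf2 by 1.13. In Paused against Serum the list had a single call, Mbtps1, the site-1 protease that cleaves SREBPs, at 0.32 (adjusted p = 0.0422), and its direction was reversed on the authors' scale (-0.60).

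In the list for citrate and NADPH supply, 4 of 7 genes were higher and 1 lower in 2i than in Serum. Idh1, the cytosolic isocitrate dehydrogenase that makes NADPH, was at 27.1 ± 4.38 FPKM in Serum, 103 ± 2.46 in 2i and 16.0 ± 0.505 in Paused cells (SD, n = 3). Its log2 differences were 1.90 ± 0.11 in 2i against Serum (adjusted p = 0.000564 by limma), -0.71 ± 0.11 in Paused against Serum (adjusted p = 0.0148) and -2.61 ± 0.11 in Paused against 2i (adjusted p = 0.000259). Me1, cytosolic malic enzyme, was higher by 1.73 in 2i than in Serum and lower by 2.02 in Paused cells than in 2i. Acss1, a mitochondrial acetyl-CoA synthetase, rose by 1.43 in 2i. Pgd, of the pentose phosphate pathway, was lower by 0.43 in Paused cells than in Serum and by 1.26 than in 2i.

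The partners of acetyl-CoA carboxylase gave 5 of 9 genes higher and 0 lower in 2i than in Serum, and 1 higher and 4 lower in Paused cells than in 2i. The 5 of 9 (55.6%) stood against 21.7% of all genes. That count fell to between 1 and 4 without any 1 library and to 1 without any line. On the authors' scale 1 was higher and 1 lower, against 9.76% and 35.7% of all genes. Thrsp, a small protein linked to lipogenesis, was at 0.349 ± 0.212 FPKM in Serum, 3.06 ± 1.30 in 2i and 0.299 ± 0.0631 in Paused cells, with log2 differences of 1.55 in 2i against Serum and -1.60 in Paused against 2i, both called. It passed the filter only through the 2i libraries, where it is high, so these calls are no support for the list. Mlycd, which removes malonyl-CoA, rose by 0.69 in 2i, and Prkag1, an AMPK subunit, by 0.46. Prkag1 was the single call in Paused against Serum, at -0.50, and was lower by 0.95 in Paused cells than in 2i, where Prkab1, another AMPK subunit, was lower by 0.62.

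Among elongation genes, 4 of 11 were higher in 2i than in Serum, 1 was lower in Paused cells than in Serum, and 8 were lower in Paused cells than in 2i. These were 36.4%, 9.09% and 72.7%, against 21.7%, 10.5% and 24.6% of all genes. With a line left out the counts were 2 to 3, 0 and 2 to 8 in the same order. The first and last were lowest without Oct4 GiP. Elovl7 and Elovl6, which add carbons to acyl-CoAs, were higher in 2i by 1.65 and 1.14, and Tecr, an enoyl-CoA reductase of the same cycle, by 0.60. Elovl7 reached 1 FPKM in the 3 libraries of 2i and in 1 other, so it passed the filter through the condition where it is high. Elovl7 was lower in Paused cells than in 2i by 1.5, Hacd1, a dehydratase of the cycle, by 0.87 and Elovl6 by 0.78. Hacd1 was also the call against Serum, lower by 0.91.

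In the list of other desaturases and electron donors, 5 of 8 were higher in 2i than in Serum, 3 lower in Paused cells than in Serum and 5 lower than in 2i. Fads6 rose by 2.05 in 2i, Scd3 by 1.23 and Scd4 by 1.02, and Scd4 too passed the filter through its 3 libraries in 2i and 1 other. Scd3 and Scd4 may share fragments with Scd1 and Scd2, so their calls may not be separate from those of the members. The calls in Paused against Serum were Cyb5b (-1.08), Cyb5a (-0.68) and Scd3 (-0.67), where cytochromes b5 are the electron donors of desaturases. In Paused against 2i Fads6 and Scd3 were lower by 1.90 each and Cyb5b by 1.54.

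Genes of acyl-CoA activation and glycerolipid synthesis went both ways. Of 13 tested, 4 were higher and 3 lower in 2i than in Serum, and 2 higher and 4 lower in Paused cells than in 2i. These shares, 30.8% and 23.1%, and 15.4% and 30.8%, were near those of all genes (21.7% and 18.9%, and 19.8% and 24.6%). Acsl5, a long-chain acyl-CoA synthetase, was at 13.3 ± 3.21 FPKM in Serum, 2.36 ± 1.30 in 2i and 14.3 ± 1.36 in Paused cells, a difference of -2.14 in 2i against Serum and of 2.26 in Paused against 2i. Dgat2, of triglyceride synthesis, was lower in 2i than in Serum by 1.10 and in Paused cells than in Serum by 0.83. Agpat2, an acyltransferase, rose by 1.09 in 2i and was lower by 1.22 in Paused cells than in 2i, where Agpat1 was lower by 1.05. Agpat1 was lower by 0.46 in Paused cells than in Serum and Mboat1, another acyltransferase, by 0.79, although Mboat1 passed the filter only through the Serum libraries, where it is high. Mitochondrial fatty acid synthesis, with 6 genes tested, had 0 calls in 2i against Serum by limma. Ndufab1, the mitochondrial acyl carrier protein, was lower by 0.59 in Paused cells than in Serum and by 0.50 than in 2i, where Mecr, an enoyl reductase, was 0.41 higher and reversed on the authors' scale (-0.12).

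**Figure D5:**
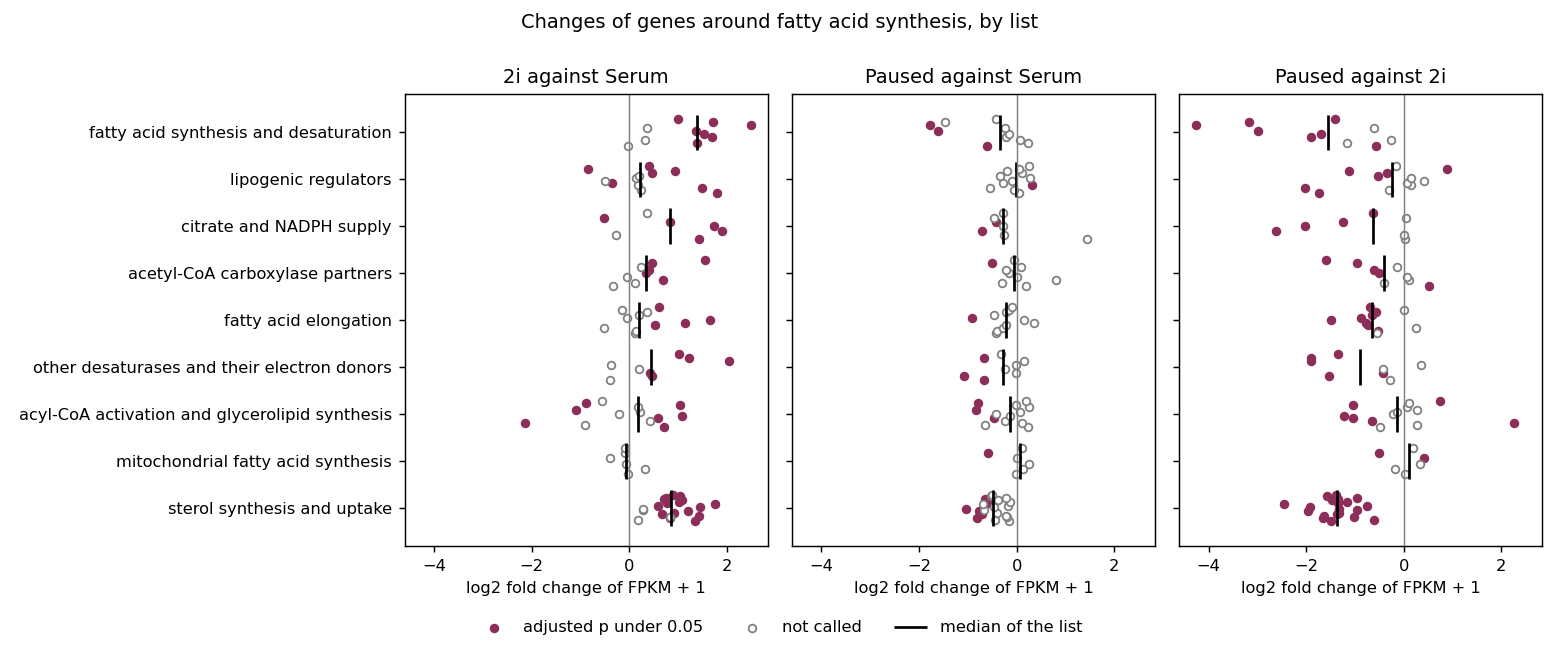
Log2 differences of FPKM + 1 for the tested genes of the members, the 7 pathway lists and the sterol list, by comparison, with filled points for adjusted p under 0.05 and bars at each list's median. The members' median is 1.38 in 2i against Serum and -1.56 in Paused against 2i, and the sterol list's 0.86 and -1.36.

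Sterol synthesis and uptake genes, which share the SREBP family of regulators with the members, were counted beside them. Of 20 tested, 16 were higher and 0 lower in 2i than in Serum, 0 higher and 6 lower in Paused cells than in Serum, and all 20 lower in Paused cells than in 2i, with medians of 0.86, -0.49 and -1.36. Msmo1, a methylsterol monooxygenase, gave 1.76 ± 0.23 in 2i against Serum and -2.46 ± 0.23 in Paused against 2i. Fdft1, squalene synthase, gave 1.42 in 2i against Serum, and Hmgcs1, HMG-CoA synthase, -1.97 in Paused against 2i. In Paused against Serum the leading calls were Idi1 (-1.04), Dhcr7 (-0.82) and Hmgcs1 (-0.77), enzymes of the same route. Their adjusted p-values by limma were 0.0232, 0.0467 and 0.0494, the last pair near the threshold. Within Oct4 GiP these genes differed by -0.50, -0.28 and -0.07. The list medians of the 3 lines were -0.74, -0.76 and 0.03, so the median was not lower for Oct4 GiP. This difference between lines was not tested. On the authors' scale 7 of the 20 were higher and 0 lower in 2i than in Serum, against 9.76% and 35.7% of all genes. All 20 were lower there in Paused cells than in Serum and than in 2i, against 76.9% and 54.5% of all genes lower. The sterol counts were not repeated with libraries or lines left out.

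Embryonic stem cell markers were present in all 9 libraries, with 9 of 9 markers at 1 FPKM or more and a summed level of 4330 to 5760 FPKM in Serum, 4060 to 4800 in 2i and 6250 to 6740 in Paused cells. The summed markers of fibroblasts and of simple epithelium were higher in Serum, carried by few genes. The 7 fibroblast feeder markers summed to 31.6 to 138 FPKM in Serum, 3.88 to 5.11 in 2i and 7.35 to 13.9 in Paused cells, with Col1a2, Col3a1 and Postn at 0.431 FPKM or less in every library. The 8 trophoblast and simple epithelium markers summed to 47.6 to 284 FPKM in Serum, 15.9 to 24.0 in 2i and 7.67 to 25 in Paused cells, with Elf5 at 0.059 FPKM or less. Krt8 and Krt18 reached 161 and 108 FPKM in the E14 Serum library, while Eomes and Gata3 peaked in the v6.5 2i library at 5.82 and 2.01 FPKM. The 5 neural progenitor markers summed to 32.9 to 49.2, 7.04 to 8.79 and 31.1 to 32.6 FPKM, and the 7 primitive endoderm markers to 3.31 to 4.18, 3.12 to 5.01 and 2.42 to 4.70 FPKM. The part of these cells in the results was not tested. Without the E14 Serum library, in which Tagln reached 114 FPKM, the members called were 1 in Paused against Serum, 6 in 2i against Serum and 7 in Paused against 2i. In bulk RNA, fewer cells of a type and less RNA per cell cannot be told apart.

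Depth was read from the low values, which step in whole fragments. One fragment was worth between 0.811 and 1 times its worth in the E14 Serum library, so a fragment weighed nearly alike in all libraries. This worth is the commonest ratio of low values, held in the E14 2i library by 213 of 1318 genes compared. Of low values of single-transcript genes, 72.3% to 78.8% came within 0.2 of a whole number of fragments. The fragment unit was set from the peak of these same values, so part of this closeness was built in. With the longest coding transcript of each gene, the members rested on an estimated 99 fragments at the lowest (Acss2 in v6.5 Paused cells) and 75000 at the highest (Fasn in E14 2i cells). Scd1 in E14 Paused cells rested on about 230. Counts for all genes could not be recovered from FPKM, so no counting interval is given.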

How the data were processed

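RNA-seq was made from 250 ng total RNA per sample with a directional kit and ERCC RNA added, as the labels' protocols say. The deposited table has an FPKM column per library from the authors, made with Cuffnorm on mm10 per the submitters' processing notes, and a normalized column that is a signal equal to the authors' FPKM times 1 constant per library, read from the values. No source used here gives the aligner, the annotation, strand use or the making of the constants.

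Of 29801 rows, 5644 without a gene name (18.9%, holding 52.8% to 64.0% of a library's FPKM) and 113 identical repeats were left out. Summed FPKM ran from 1451983 to 2133969. Limma 3.58.1 in R 4.3.3 was fitted to log2(FPKM + 1) over all 9 libraries with the cell line as a block, after a check on simulated data. That check changed 50 genes per size in Paused against Serum. It recovered 26% of log2 changes of 0.5, 74% of 1, 86% of 1.5 and 96% of 2, with 9 false calls. Most changes of the smallest size were thus missed. The labelled cell line gives the pairing. Deviations from condition means correlated at -0.001 to 0.401 within a line and at -0.243 to 0.094 between lines. P-values set each condition difference against the residual spread over the 9 libraries after the cell line block, moderated towards a trend over all genes. That spread comes from 3 lines, which were not separate cultures of 1 line.

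The members and lists were chosen with earlier results of these data known. All members were described, and from each other list up to 3 genes per comparison with the largest absolute log2 difference among those called, plus the 3 genes most correlated with each member. A gene that this rule names is not reported here. Of the list genes, Mbtps2, Acsl3, Hsd17b8 and Tm7sf2 have no row of their own. Gene coordinates are from GENCODE M21 on GRCm38 and promoters from RefSeq. Alternatives were another pseudocount (0.1), no filter, a filter of 5 FPKM, the authors' columns, median centring, no block, only the 6 libraries compared, and leaving out each library or line.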

Additional observations from a re-analysis of the deposited data

How the results depend on the processing

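Calls that passed without any 1 library were Srebf1, Acss2, Scd1, Fads1 and Fads2 in 2i against Serum, and the same 5 genes and Scd2 in Paused against 2i. In Paused against Serum none of the 3 calls did. On the authors' columns Paused against Serum gave 9827 genes, 9 members and 58 wider pathway genes called, and 2i against Serum gave 2985 genes when only the 6 libraries compared were used. Leaving out 1 library gave 12 to 3223 genes called in Paused against Serum, 2969 to 5436 in 2i against Serum and 3543 to 5611 in Paused against 2i. The members called were then 0 to 3, 5 to 7 and 6 to 8, and the wider pathway genes 0 to 17, 20 to 32 and 25 to 34. Leaving out a line gave 4 to 7, 1269 to 4102 and 2073 to 3925 genes, 0, 5 to 6 and 6 members, and 0, 11 to 20 and 23 to 29 wider pathway genes.

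Among the members and their ratios, the directions that reversed were of differences that had not passed; of the called genes in the other lists, Mbtps1 and Mecr reversed on the authors' columns. On those columns the members that reversed were Acly (-0.86) and Acacb (-0.57) in Paused against Serum and Acly (-0.037) and Fasn (-0.01) in 2i against Serum. Acacb in Paused against Serum reversed without E14 Paused (range over all such omissions -0.056 to 0.659), and Acly without Oct4 GiP Paused or without that line (-0.033; range -0.059 to 0.156). Acaca in 2i against Serum reversed without v6.5 Serum, v6.5 2i, Oct4 GiP 2i or the v6.5 line (range -0.218 to 0.136). The ratio of Acaca to Acacb in Paused against 2i reversed without v6.5 (range -0.169 to 1.256). Without the cell line as a replicate block, the genes called were 1602, 4368 and 4797 and the members called 3, 7 and 7, with Acaca lost (adjusted p = 0.0545) and Scd2 gained (0.0442) in Paused against Serum. Without a filter, Acaca in Paused against Serum (0.0793) and Acacb in 2i against Serum (0.0698) were lost, and with only the 6 libraries compared Acaca in Paused against 2i (0.0547) and Acacb in 2i against Serum (0.0636). Median centring lost Acacb in 2i against Serum (0.0503) and moved the split in Paused against 2i from 2517 higher and 3121 lower to 3180 and 2645. The cause of these changes was not tested.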

Other observations

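Acss1, the mitochondrial counterpart of Acss2, stood at 1.67 ± 0.819 FPKM in Serum, 6.51 ± 3.68 in 2i and 6.20 ± 1.68 in Paused cells (SD, n = 3). Its log2 difference in Paused against Serum, 1.45 ± 0.40, was positive in 3 of 3 lines (1.33 in E14, 0.95 in v6.5, 2.08 in Oct4 GiP) and just missed the threshold (adjusted p = 0.0521 by limma); it was 0.92 on the authors' scale. Paused and 2i differed by 0.02 (95% interval -0.949 to 0.984, adjusted p = 0.975 by limma), with lines of both signs (0.855, -0.182 and -0.62), so this does not show that the levels were alike, and it was -0.496 on the authors' scale. This gene was singled out after its values were seen.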
